A study of Mus musculus with 32 samples.

Results

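The 10 genes described here are BCL2 family members picked by gene symbol: the prosurvival genes Bcl2, Bcl2l1 (BCL-XL), Mcl1 and the A1 copies Bcl2a1a, Bcl2a1b, Bcl2a1c and Bcl2a1d, and the BH3-only death genes Bcl2l11 (BIM), Bbc3 (PUMA) and Pmaip1 (NOXA). All 10 were found among the 33654 genes listed in each of the 4 expression tables. The rule reads gene names and no threshold on a value.

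BCL2 family proteins decide whether the outer mitochondrial membrane is opened during apoptosis. Prosurvival members hold the pore formers BAX and BAK in check, and BH3-only proteins bind the prosurvival members and release the pore formers. BIM and NOXA differ in their partners: BIM binds every prosurvival member, while NOXA binds mainly MCL1 and A1. In T cells, BCL2 is maintained by cytokines such as interleukin 7, and A1 is induced by antigen receptor and NF-kB signals; A1 is also abundant in myeloid cells.

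RNA was sequenced from breast cancer cells of the MMTV-PyMT model, in which the polyoma middle T oncogene is driven by a mammary tumor virus promoter, and from CD8 T cells taken from tumors. The time course holds 3 tumor cell libraries from week 2 and 4 each from weeks 3 and 4, and 3 CD8 T cell libraries from each of those weeks. A second set came from xenografts: tumor cells and CD8 T cells with the genotype WT and the treatment shCTRL, a control hairpin (n = 3 each), or with the genotype Mogat1 knockdown and the treatment shMogat1 (n = 3 each). The labels give no mouse strain, host, age, sort gate or hairpin sequence, and they do not say whether replicates came from separate animals, so p-values measure the spread between these libraries, which may be technical.

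Values are TPM, read numbers scaled by gene length and library total. Read numbers recovered from the steps between TPM values summed to 21.2 to 36.0 megareads per library over the time course and 24.5 to 39.3 megareads in the hairpin set. Libraries of a hairpin group differed little beyond sampling noise: the median ratio of observed to expected variance between 2 libraries was 1.30 to 2.65, against 3.70 to 39.6 over the time course. Mogat1, the hairpin's target, was listed at 0 in all 3 tumor libraries labelled shCTRL and at 0.624, 0.146 and 0.531 TPM in those labelled shMogat1. In the 6 CD8 T cell libraries with the same labels it lay at 0.208 to 0.577 TPM. The target therefore did not check the labels, and groups are called "labelled shMogat1" and "labelled shCTRL" below.

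The labelled cell types were checked against marker genes. Summed over 8 measured T cell markers, CD8 T cell libraries held 4824 to 7059 TPM and tumor libraries 6.46 to 316. Summed over 7 epithelial markers, tumor libraries of the time course held 1102 to 2108 TPM. Tumor libraries labelled shCTRL held only 202 to 217 TPM, nearly all of it Krt18 (203 ± 8.27 TPM, SD, n = 3), with Epcam at 0.692 and Krt8 at 1.45 TPM, while those labelled shMogat1 held 943 to 984. The 6 fibroblast markers summed to 4932 to 4973 TPM in tumor libraries labelled shCTRL and to 2630 to 2706 in those labelled shMogat1. In tumor libraries of the time course they summed to 1067 to 6954 TPM. The hairpin CD8 T cell libraries held 2802 to 3094 TPM of 10 macrophage and monocyte markers, more than the 589.9 to 1275 of the time course.

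The other members with positions in GENCODE M21 (build GRCm38, the same as mm10) are Bcl2 (chr1:106538178-106714274, minus strand), Bcl2l1 (chr2:152780668-152831728, minus), Mcl1 (chr3:95658788-95663176, plus), Bcl2l11 (chr2:128126038-128162547, plus) and Bbc3 (chr7:16308393-16318205, plus).

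The 4 A1 copies are shown first, because their near identity limits how far their values can be told apart. In the same annotation they are protein-coding genes on chromosome 9: Bcl2a1d at chr9:88723285-88731914 (minus strand), Bcl2a1a at chr9:88956900-88962419 (plus), Bcl2a1b at chr9:89199209-89207827 (plus) and Bcl2a1c at chr9:114330135-114330578 (plus). The first 120 coding bases, from the GENCODE M21 transcripts, differ at 8 positions among the copies, marked by capitals.
Bcl2a1a coding: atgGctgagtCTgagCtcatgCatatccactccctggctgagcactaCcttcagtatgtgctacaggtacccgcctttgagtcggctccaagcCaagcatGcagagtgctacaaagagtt
Bcl2a1b coding: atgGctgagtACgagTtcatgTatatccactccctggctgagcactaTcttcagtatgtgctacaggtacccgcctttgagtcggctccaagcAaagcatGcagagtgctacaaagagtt
Bcl2a1c coding: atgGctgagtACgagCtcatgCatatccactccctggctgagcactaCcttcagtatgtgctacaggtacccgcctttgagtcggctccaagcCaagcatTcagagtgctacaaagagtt
Bcl2a1d coding: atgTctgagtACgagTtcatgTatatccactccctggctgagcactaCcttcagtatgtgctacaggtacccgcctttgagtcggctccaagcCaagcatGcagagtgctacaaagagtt

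Over the first 384 coding bases, aligned without gaps, Bcl2a1b and Bcl2a1d were 98.7% identical, Bcl2a1a and Bcl2a1d 98.4%, and Bcl2a1a and Bcl2a1b 97.7%. Bcl2a1c shared only 82.6% to 83.1% of those positions with the others. These 384 bases are its whole coding length, against 516 for the others. In the 120 bases shown above it did not stand apart in this way, and without gaps a shift of bases counts as many differences. Of all 100-base windows of a copy's transcript, 43.5% for Bcl2a1a, 31.1% for Bcl2a1b and 54.7% for Bcl2a1d also occurred in another copy, against 0% for Bcl2a1c. How the authors assigned reads that fit several copies is not given in the sources used here, so the split among Bcl2a1a, Bcl2a1b and Bcl2a1d is uncertain and their sum is given beside them.

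Upstream, only a short stretch was compared. It was placed by a run that all copies share, so part of its likeness follows from that choice. The next lines show 80 bases before the earliest RefSeq start among the copies (RefSeq on GRCm38.p6; all 4 copies matched), aligned on a shared run of 46 bases, with capitals at the 5 positions that differ. The 2 annotations place the starts differently. By GENCODE, Bcl2a1a (88956900), Bcl2a1b (89199209) and Bcl2a1d (88731914, minus strand) start within the stretches shown, so part of each lies inside the annotated gene.
Bcl2a1a promoter, chr9:88956840-88956919, plus strand: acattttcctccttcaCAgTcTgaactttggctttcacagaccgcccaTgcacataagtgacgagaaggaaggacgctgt
Bcl2a1b promoter, chr9:89199149-89199228, plus strand: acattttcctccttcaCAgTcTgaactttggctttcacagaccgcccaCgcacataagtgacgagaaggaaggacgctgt
Bcl2a1c promoter, chr9:114329945-114330024, plus strand: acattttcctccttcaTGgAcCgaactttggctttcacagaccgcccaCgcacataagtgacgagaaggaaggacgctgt
Bcl2a1d promoter, chr9:88731851-88731930, minus strand: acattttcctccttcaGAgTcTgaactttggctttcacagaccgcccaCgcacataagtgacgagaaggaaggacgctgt

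In windows from 250 bases before to 50 after each RefSeq start, the motif TGANTCA (AP-1, both strands) matched in Bcl2a1a, Bcl2a1b and Bcl2a1d among the 9 members searched. It matched in 7.81% of 32851 promoters of the same length. The NF-kB consensus matched in Bcl2l1 and Bbc3 (8.46% of all promoters), and the FOXO motif GTAAACA in Bcl2l11 and Bbc3 (3.65%). These are matches of letters only.

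On the TPM scale, which is per length, Mcl1 had the highest mean level of the members in all 10 groups, at 209 to 619.6 TPM per library. The exception among single libraries was week 4 CD8 T cell library 2, in which Bcl2a1b (277 TPM) was slightly above Mcl1 (272). In CD8 T cells Bcl2 and Bcl2a1b came next, followed by Pmaip1 and Bcl2l11, then Bcl2a1a, Bcl2a1d and Bbc3, with Bcl2l1 and Bcl2a1c lowest. At week 4 the libraries of Bcl2 (219 to 264 TPM) and Bcl2a1b (201 to 277) overlapped, as did those of Pmaip1 and Bcl2l11. In tumor cells of the time course the members below Mcl1 and Bcl2a1b lay close together: at week 3, Bcl2, Bcl2l11, Bbc3, Bcl2l1 and Pmaip1 had means of 14.4 to 19.0 TPM and each overlapped the next. In the hairpin set Bcl2l11 came second in tumor cells (25.9 and 21.4 TPM), clear of the next member in both groups. Bcl2a1b held 60.3% to 81.8% of the summed A1 level in every library. The tables were scaled separately, so a level in 1 table can be set beside another table's only as a description.

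**Figure D1:**
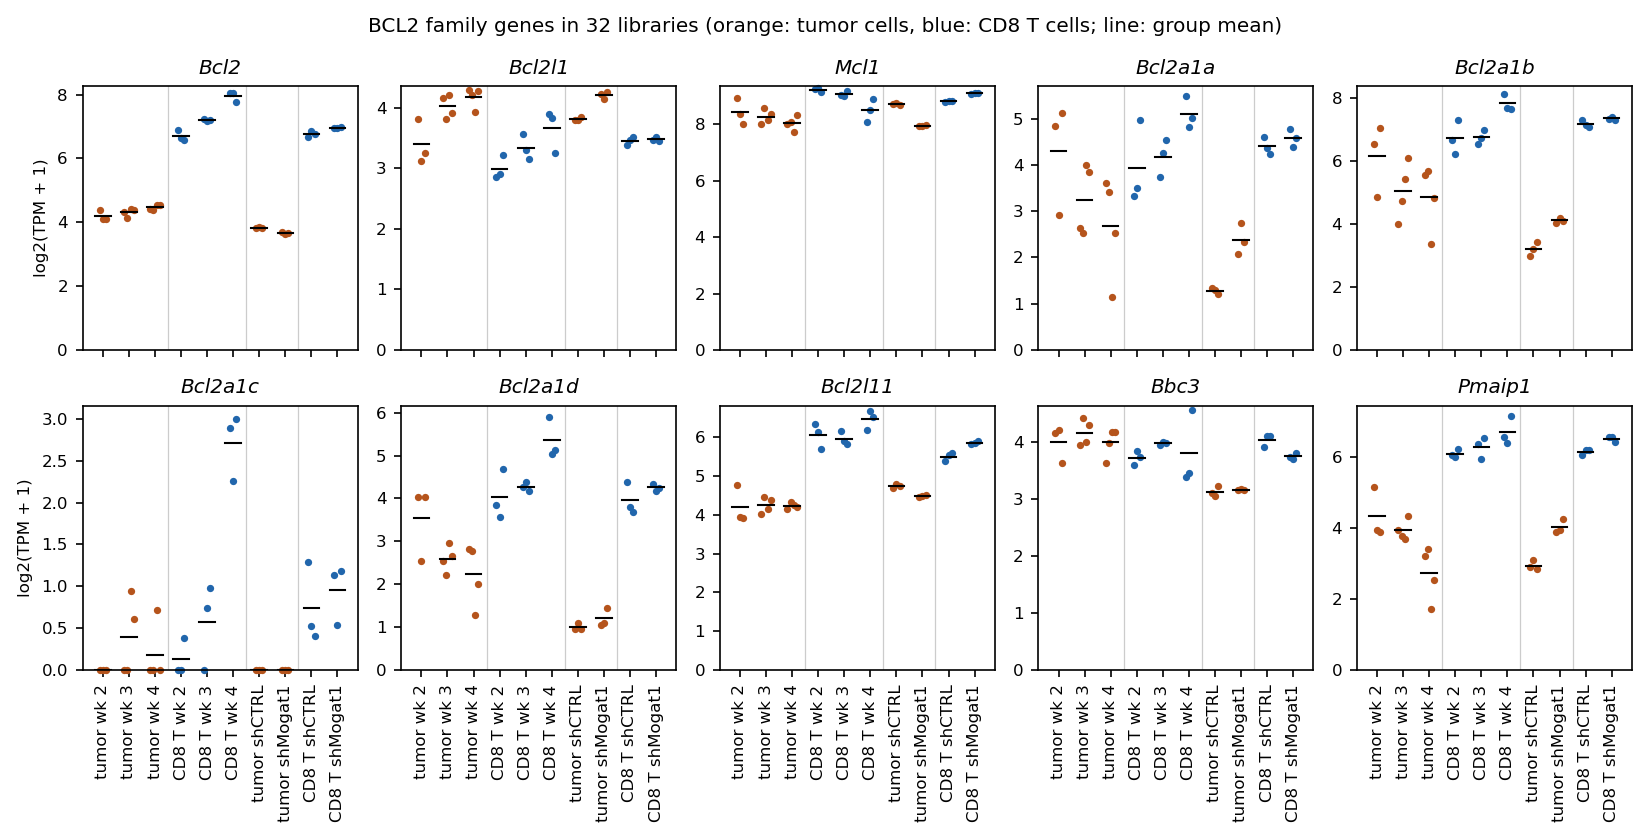
Level of each BCL2 family gene as log2(TPM + 1) on the vertical axis, 1 dot per library, in the 10 groups on the horizontal axis, with the mean of the log values as a line. Bcl2 climbs over the weeks in CD8 T cells from 94.4 to 264 TPM, while Mcl1 has the highest mean in every group and Bcl2a1c is at or near 0 outside week 4 CD8 T cells.

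The first comparison asked how the members' transcripts changed in CD8 T cells between early and late tumors. At week 4 against week 2, Bcl2 rose 2.41-fold, Bcl2a1b 2.07-fold and Bcl2a1d 2.56-fold, Bcl2a1c rose from near 0, and Mcl1 fell to 0.62 of its week 2 level. By limma on log2(TPM + 1) with Benjamini-Hochberg adjustment over 13350 tested genes (called at an adjusted p under 0.05), 4 of 10 members rose, where 10.3% of all genes did, and 1 fell, where 7.18% did. The 4 include Bcl2a1c, which entered the test only through its week 4 libraries. Without it 3 of 9 rose, among them Bcl2a1b and Bcl2a1d, which may share reads and so are not separate evidence. Counts and medians of members, here and below, take each A1 copy as 1 gene. The median log2 difference of those 9 was 0.67, and that of all tested genes -0.01. In these bulk samples, fewer cells of a type and less RNA per cell cannot be told apart.

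Bcl2, the prosurvival gene of resting and memory lymphocytes, had 117, 97.8 and 94.4 TPM in the 3 week 2 libraries. It had 149, 142 and 147 TPM at week 3. At week 4 it had 262, 264 and 219 TPM. Every week 3 library lay above every week 2 library, and every week 4 library above all of week 3. The log2 difference between weeks 4 and 2 was 1.26 (SE 0.11, adjusted p = 0.00121), and the call held under all 15 alternative settings run. The rise of weeks 4 over 3 was 0.76 (SE 0.11, adjusted p = 0.0132). That later call was lost with the replicate number as a block (0.0738) and without week 3 library 3 (0.0719), week 3 library 4 (0.0517), week 4 library 2 (0.0509) or week 4 library 3 (0.067).

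Mcl1, a short-lived prosurvival protein that T cells need throughout life, had 609.5, 619.6 and 563 TPM at week 2. It had 526, 512 and 575 TPM at week 3. It had 272, 362 and 477 TPM at week 4. All week 4 libraries lay below the others but were spread widely, with library 2 lowest. The log2 difference of weeks 4 against 2 was -0.72 (SE 0.18, adjusted p = 0.0238). This call was lost without the filter on low values (0.0517), in a fit of the 2 weeks only (0.0589), and without week 2 library 1 (0.0759), week 2 library 2 (0.0788) or week 4 library 3 (0.0655). The ratio of Bcl2 to Mcl1 TPM went from 0.158 to 0.192 at week 2, through 0.255 to 0.282 at week 3, to 0.46 to 0.963 at week 4, with no overlap between weeks. Bcl2l1, which encodes BCL-XL, had 6.21 to 8.32 TPM at week 2 and 8.57 to 13.9 at week 4, a log2 difference of 0.67 that did not pass (SE 0.21, adjusted p = 0.0547). Without week 2 library 3 (0.0408) or week 4 library 4 (0.0172) it did.

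**Figure D2:**
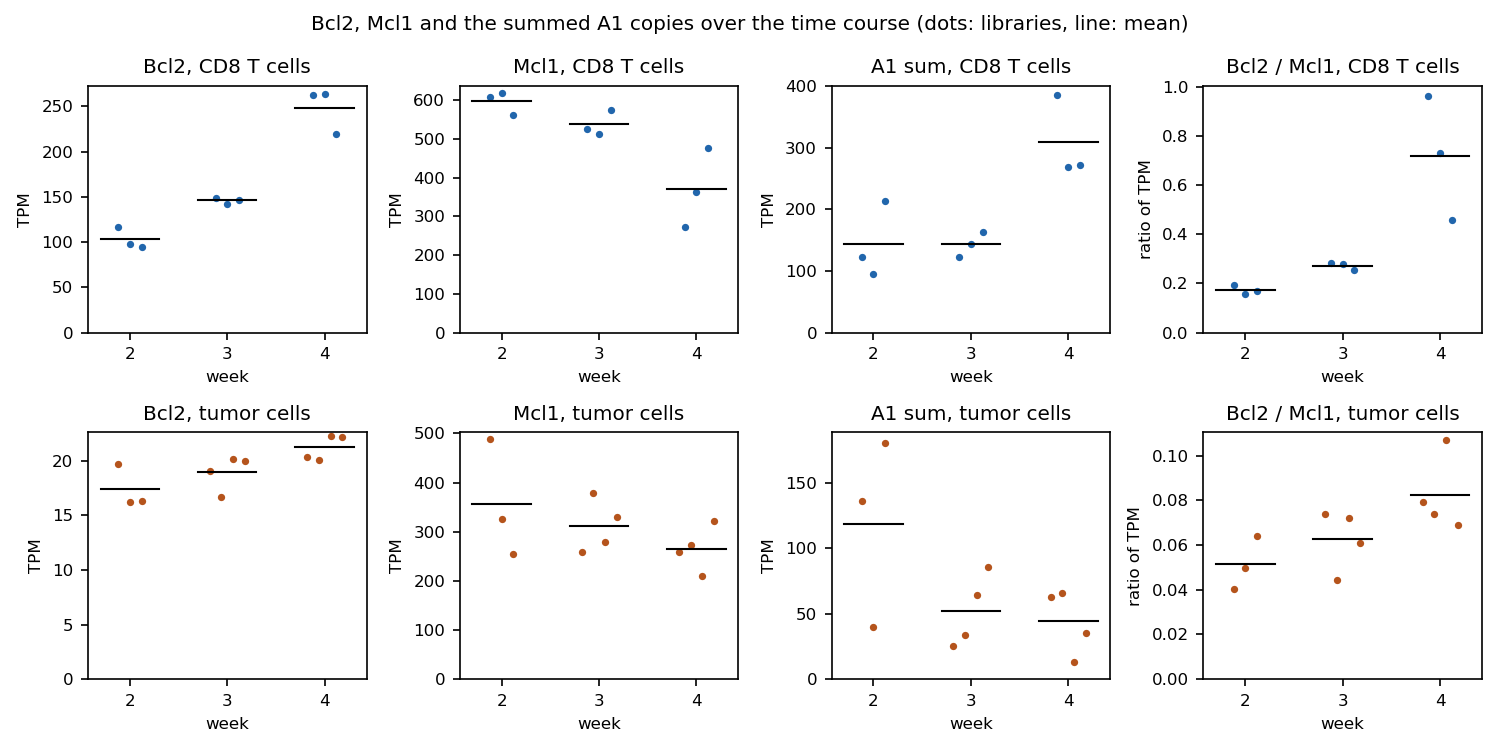
TPM of Bcl2, Mcl1 and the summed A1 copies, and the ratio of Bcl2 to Mcl1, against week, in CD8 T cells (top row) and tumor cells (bottom row); dots are libraries and lines are means. In CD8 T cells the ratio goes from 0.158 to 0.192 at week 2 to 0.46 to 0.963 at week 4, and in tumor cells from 0.0403 to 0.0641 to 0.069 to 0.107.

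Among the A1 copies, Bcl2a1b had 99.7, 73.9 and 157 TPM at week 2 and 277, 206 and 201 at week 4. Bcl2a1d had 13.3, 10.8 and 24.9 TPM at week 2 and 59.0, 31.9 and 34.2 at week 4. In both, every week 4 library exceeded every week 2 library, of which library 3 was highest. The log2 differences were 1.10 for Bcl2a1b (SE 0.25, adjusted p = 0.0205) and 1.33 for Bcl2a1d (SE 0.31, adjusted p = 0.02). Both calls were lost with the replicate block (0.0856 and 0.0715) and without week 2 library 1 (0.0677 and 0.0705), week 2 library 2 (0.0607 and 0.0702) or week 4 library 2 (0.0712 and 0.0613). Bcl2a1d also lost it in the fit of the 2 weeks only (0.0516). Bcl2a1a, at 9.02, 10.3 and 30.5 TPM against 43.8, 27.1 and 31.3, overlapped between weeks and did not pass (log2 difference 1.17, SE 0.41, adjusted p = 0.0778). It did pass without week 2 library 3, its highest of that week (1.69, adjusted p = 0.00769).

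Bcl2a1c, the copy least like the others over 384 coding bases, had 0, 0 and 0.308 TPM at week 2. That is 0, 0 and 2 recovered reads. At week 3 it had 0, 0.676 and 0.971 TPM. At week 4 it had 6.42, 3.78 and 7.03 TPM, or 45, 24 and 39 reads. Only the week 4 libraries held more than 6 reads, and the gene entered the test through them alone, so its calls (adjusted p = 0.00244 against week 2 and 0.012 against week 3) describe a gene that had to differ. The call against week 3 was lost with a pseudocount of 0.1 (0.083), with the replicate block (0.0614) and without week 3 library 3 (0.0516). Summed over the 4 copies, A1 went from 95.0 to 213 TPM at week 2 and 123 to 164 at week 3 to 269 to 386 at week 4.

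The BH3-only members did not pass in any CD8 T cell comparison of the time course. Pmaip1, which encodes NOXA, had 65.1, 62.1 and 73.6 TPM at week 2 and 92.8, 82.4 and 141 at week 4. The weeks did not overlap, yet the log2 difference of 0.61 (SE 0.21) had an adjusted p of 0.0759. Bcl2l11, which encodes BIM, lay at 51.4 to 80.4 TPM at week 2, 55.4 to 70.6 at week 3 and 72.2 to 101 at week 4 (weeks 4 against 2, log2 difference 0.40, SE 0.19, adjusted p = 0.156). Bbc3, the p53 target PUMA, had 9.44, 9.95 and 22.4 TPM at week 4. Library 4 alone stood high, and weeks 4 and 2 overlapped (log2 difference 0.09, SE 0.27, adjusted p = 0.847).

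Between weeks 3 and 2, limma called 0 of 10 members higher or lower, where it called 0.0449% of genes higher and 0% lower. Unadjusted, Bcl2 alone had a limma p under 0.05 (log2 difference 0.50, SE 0.11), and its adjusted p was 0.235. Between weeks 4 and 3, 2 members rose and 0 fell, where 1.38% and 1.29% of genes did. They were Bcl2 and Bcl2a1c, and the filter fixed the latter's call, which leaves 1 of 9. Bcl2a1b (1.07, SE 0.25), Bcl2a1d (1.09, SE 0.31) and Mcl1 (-0.57, SE 0.18) did not overlap between these weeks, with adjusted p of 0.0592, 0.0904 and 0.108. Nor did Bcl2a1a (0.93, SE 0.41, adjusted p = 0.204) and the death gene Bcl2l11 (0.50, SE 0.19, adjusted p = 0.157). Bcl2a1b passed in the fit of the 2 weeks only (0.0292) and without week 2 library 2 (0.0426) or 3 (0.0215), Bcl2a1d without week 2 library 3 (0.039), and Mcl1 without week 4 library 4 (0.0257). Median-of-ratios rescaling, which moved the median of all genes from -0.13 to -0.01, turned 184 higher and 172 lower genes into 324 and 155. The 3 comparisons share libraries and are not independent of each other.

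Markers listed for other cell types also differed in sum between the CD8 T cell libraries. From week 2 to week 4, summed neutrophil markers went from 0.169 to 16.8 TPM to 19.6 to 66.5, epithelial markers from 71.1 to 116 TPM to 154 to 237, and fibroblast markers from 97.7 to 667 TPM to 43.8 to 53.8. Few single markers passed: 1 of 4 tested neutrophil markers rose, 1 of 6 tested epithelial markers rose and 1 fell, and 0 of 6 fibroblast markers passed. Among the epithelial markers, Cdh1 went from 18.4 to 26.0 TPM to 71.7 to 139. The 6 dendritic cell markers summed to 1306 to 1843 TPM at week 2 and 416 to 1096 at week 4. Most of that was Ccr7 (1268 to 1803 and 309.6 to 1047 TPM). Of the 6, 1 fell and 0 rose, with a median log2 difference of 0.18, so the sum does not describe the list. Endothelial markers went from 102 to 128 TPM to 29.5 to 70.8. The mitochondrial share of TPM was 3.56% to 4.67% at week 2 and 5.95% to 7.09% at week 4. Sums of macrophage and monocyte markers, whose cells express A1, overlapped (738 to 860.2 TPM and 589.9 to 1104). None of these 10 markers was called, but their median log2 difference was 0.98. T cell markers overlapped in sum as well (5724 to 6084 and 6043 to 7059 TPM). The part of other cells in the members' differences was not tested.

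Of 94 genes in 11 lists of apoptosis and its upstream signals, 89 were tested in CD8 T cells; at week 4 against week 2, 14 rose and 12 fell, with a median log2 difference of 0.00. The pore formers Bax, Bak1 and Bok showed 0 of 3 calls; Bak1 had 70.2 ± 16.6 TPM against 43.1 ± 4.73 (SD, n = 3, adjusted p = 0.0736). Of 14 genes of cytokine survival signals, 3 rose and 2 fell: Cish, a feedback inhibitor induced by STAT5, rose by 2.21 (adjusted p = 0.00174), Il2rb, the shared interleukin 2 and 15 receptor chain, rose by 1.15 (0.015), and Stat5a fell by 1.15 (0.0134). Of 12 NF-kB subunits and targets, 3 rose and 0 fell, led by the subunit Rel (206 ± 35.6 against 103 ± 24.6 TPM, log2 difference 1.01, adjusted p = 0.0105) and the inhibitors Nfkbia (0.72, 0.0453) and Nfkbie (0.65, 0.0172).

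Of 8 FOXO factors and targets, 5 fell and 0 rose, with a median of -0.73. Klf2, a quiescence and trafficking factor, fell from 888 ± 227 to 316 ± 194 TPM (log2 difference -1.72, adjusted p = 0.0357). Bcl6 fell by 0.97 (0.0335) and Foxo3 by 0.95 (0.0455). Of 12 caspase, apoptosome and inhibitor genes, 3 rose and 1 fell. Birc5 (survivin, 1.43, adjusted p = 0.0266), which is expressed in dividing cells, and Birc2 (0.50, 0.0427) were among those that rose. Among 10 death receptor genes, Fasl rose by 1.65 (0.0163), while Cflar (-0.57, 0.0281) and Ripk1 (-0.49, 0.0232) fell. Of 13 tested p53 genes, Perp rose by 1.86 (0.00476) and Sesn1 fell by 1.14 (0.0155). Ddit4, an inhibitor of mTORC1, rose from 55.8 ± 7.72 to 209 ± 11.3 TPM (1.89, 0.00121), 1 of 2 integrated stress response genes of 9 that rose.

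The second comparison asked the same of tumor cells. Between weeks 2 and 4, Bcl2l1 rose 1.75-fold, and Pmaip1 and Bcl2a1d fell to 0.296 and 0.344 of their week 2 means. Of 9 tested members, 1 rose, where 29.2% of 14770 genes did, and 2 fell, where 17.1% did. Bcl2a1c was under the filter, at 0 in 8 of 11 libraries and at most 0.93 TPM. The members' median log2 difference was -0.39, against 0.11 over all tested genes. Rescaling libraries by a median of ratios moved the median of all genes to -0.01 and turned 4318 higher and 2525 lower genes into 3542 and 3441.

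Bcl2l1 had 13.1, 7.69 and 8.55 TPM in the 3 week 2 libraries. It had 16.9, 13.1, 17.4 and 14.1 TPM at week 3, and 18.5, 17.4, 14.2 and 18.3 at week 4. Weeks 3 and 4 overlapped each other and lay above every week 2 library, of which library 1 was highest. The log2 differences were 0.77 for weeks 4 against 2 (SE 0.18, adjusted p = 0.00452), which held under all 17 alternatives, and 0.63 for weeks 3 against 2 (SE 0.18, adjusted p = 0.0263). The latter was lost in a fit of the 2 weeks only (0.0768) and without week 2 library 2 (0.122), week 2 library 3 (0.0741), week 3 library 1 (0.0665) or week 3 library 3 (0.0711).

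Bcl2 had 16.2 to 19.7 TPM at week 2, 16.7 to 20.2 at week 3 and 20.1 to 22.3 at week 4. Weeks 2 and 4 did not overlap, but the log2 difference of 0.28 (SE 0.11) had an adjusted p of 0.0523. It passed under the stricter filter (0.0428) and without week 2 library 1 (0.37, 0.00931) or week 3 library 2 (0.044). Mcl1 had 488, 325 and 254 TPM at week 2 and 258, 272, 209 and 321 at week 4. The weeks overlapped, and the log2 difference of -0.39 (SE 0.22, adjusted p = 0.169) passed only under median-of-ratios rescaling (-0.53, 0.0405) and without week 2 library 3 (-0.60, 0.0414).

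Pmaip1 had 34.6, 14.4 and 13.8 TPM at week 2. It had 14.4, 12.5, 11.8 and 18.9 TPM at week 3, and 8.15, 9.54, 2.31 and 4.78 at week 4. Each week 4 library lay below every library of weeks 2 and 3, with library 3 lowest. That library also had the highest mitochondrial share of TPM (16.1%, against 9.81% to 10.1% in the others of week 4). The log2 difference of weeks 4 against 2 was -1.62 (SE 0.41, adjusted p = 0.00761) and held under all 17 alternatives, with -1.29 (adjusted p = 0.0148) without that library. Against week 3 it was -1.21 (SE 0.38, adjusted p = 0.0547), which passed with the replicate block (0.0489), under median-of-ratios rescaling (0.0415), in the fit of the 2 weeks only (0.0285) and without week 2 library 1 (0.0221), week 2 library 3 (0.0497) or week 4 library 2 (0.0404). The other BH3-only members did not pass in any of these 3 comparisons: Bcl2l11 had 14.1 to 26.1, 15.3 to 21.0 and 16.8 to 19.2 TPM at weeks 2, 3 and 4, and Bbc3 had 11.3 to 17.4, 14.3 to 20.3 and 11.4 to 17.0.

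The A1 copies varied widely among libraries of a week. Bcl2a1d had 15.5, 4.85 and 15.5 TPM at week 2. It had 4.80, 3.61, 6.74 and 5.30 TPM at week 3, and 6.09, 5.87, 1.44 and 3.04 at week 4. Week 2 library 2 fell within the range of the later weeks, and the other 2 stood above them. The log2 difference of weeks 4 against 2, -1.32 (SE 0.43, adjusted p = 0.0277), was lost without the filter (0.0547), with the replicate block (0.0639), in the fit of the 2 weeks only (0.0649) and without week 2 library 1 (0.089), week 2 library 3 (0.0992), week 4 library 3 (0.0678) or week 4 library 4 (0.0624). Bcl2a1b (92.6, 28.2 and 131 TPM against 45.5, 50.2, 9.40 and 27.6) and Bcl2a1a (27.5, 6.53 and 33.8 against 11.1, 9.64, 1.20 and 4.77) overlapped and did not pass (adjusted p = 0.134 and 0.0702). Both passed without week 2 library 2 (0.0452 and 0.0218), and Bcl2a1a under rescaling (0.0469).

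Markers of leukocytes and other cells also differed between these libraries. The summed A1 level was highest in week 2 libraries 3 and 1 (180.1 and 136 TPM) and lowest in week 4 library 3 (12.7). The 4 pan-leukocyte markers summed to 242 and 539 TPM in the first 2 of these libraries and to 27.8 in the last, which was also their lowest value. The 10 macrophage and monocyte markers summed to 2024, 2564 and 171 TPM there. At week 4 against week 2, 2 of 4 pan-leukocyte markers fell (Ptprc by 2.17), as did 6 of 8 tested T cell, 4 of 4 B cell, 2 of 10 macrophage and monocyte, 3 of 5 dendritic cell and 4 of 4 mast cell markers, and none of these rose. Neutrophil markers went the other way: 2 of 4 tested rose and 0 fell, and their sum was 26.9 to 68.9 TPM at week 2 and 136 to 226 at week 4. Of 5 endothelial markers, 4 fell (95.2 to 191 TPM summed against 18.2 to 28.8). The part of other cells in the A1 and Pmaip1 differences was not tested.

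**Figure D3:**
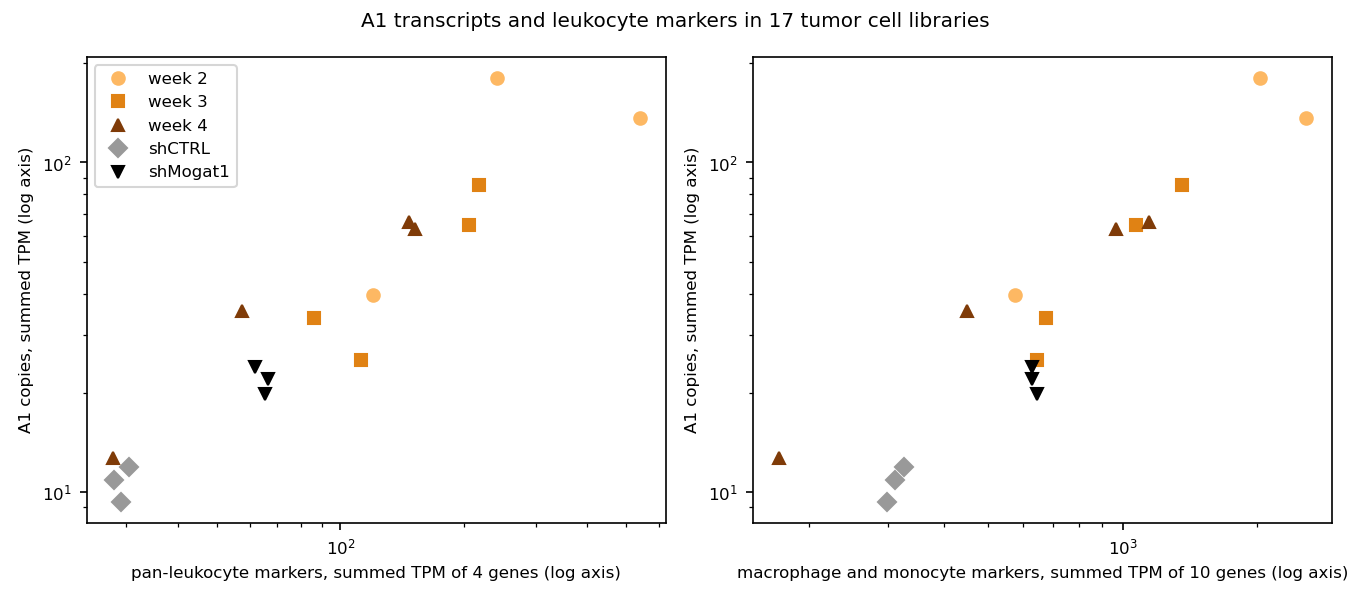
Summed TPM of the 4 A1 copies against the summed TPM of pan-leukocyte markers (left) and of macrophage and monocyte markers (right) in the 17 tumor cell libraries, both on log axes; symbols mark the groups. The order of the libraries is not the same on both axes: week 2 library 1 has the most marker TPM (539 and 2564) and week 2 library 3 the most A1. The lowest A1 sums (9.33 to 12.7 TPM) are in libraries labelled shCTRL and week 4 library 3, and the highest (136 and 180.1) in week 2 libraries 1 and 3.

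Between weeks 3 and 2, 1 member rose (Bcl2l1) and 0 fell, where 20.1% and 4.01% of genes did; the members' median was -0.15 and that of all genes 0.14. Rescaling moved the latter to -0.02 and 2967 higher and 593 lower genes to 1952 and 1418. Bcl2a1d, which did not pass, did so without week 2 library 2 (-1.46, 0.0469). Between weeks 4 and 3, 0 members rose or fell by limma, where 5.53% of genes rose and 8.19% fell. Pmaip1 was then the only member with an unadjusted limma p under 0.05. These comparisons share libraries with the first.

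The 94 listed genes had 92 tested in tumor cells, of which 16 rose and 32 fell at week 4 against week 2 (median -0.23). The p53 list stood among the larger counts: 8 of 14 fell and 0 rose, with a median of -0.57. Eda2r, a member of the TNF receptor family, fell from 23.3 ± 8.73 to 1.63 ± 0.41 TPM (log2 difference -3.15, limma adjusted p = 3.87e-05). Phlda3, an AKT inhibitor, fell from 68.1 ± 27.6 to 14.4 ± 1.91 TPM (-2.09, 0.000169), and Cdkn1a, the cell cycle inhibitor p21, from 247 ± 131 to 66.2 ± 8.90 TPM (-1.76, 0.00116). Pmaip1 fell as these did, and Bbc3, also a p53 target, did not pass (-0.01, SE 0.19). Against week 3, 9 of 14 fell at week 4 and 0 rose.

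**Figure D4:**
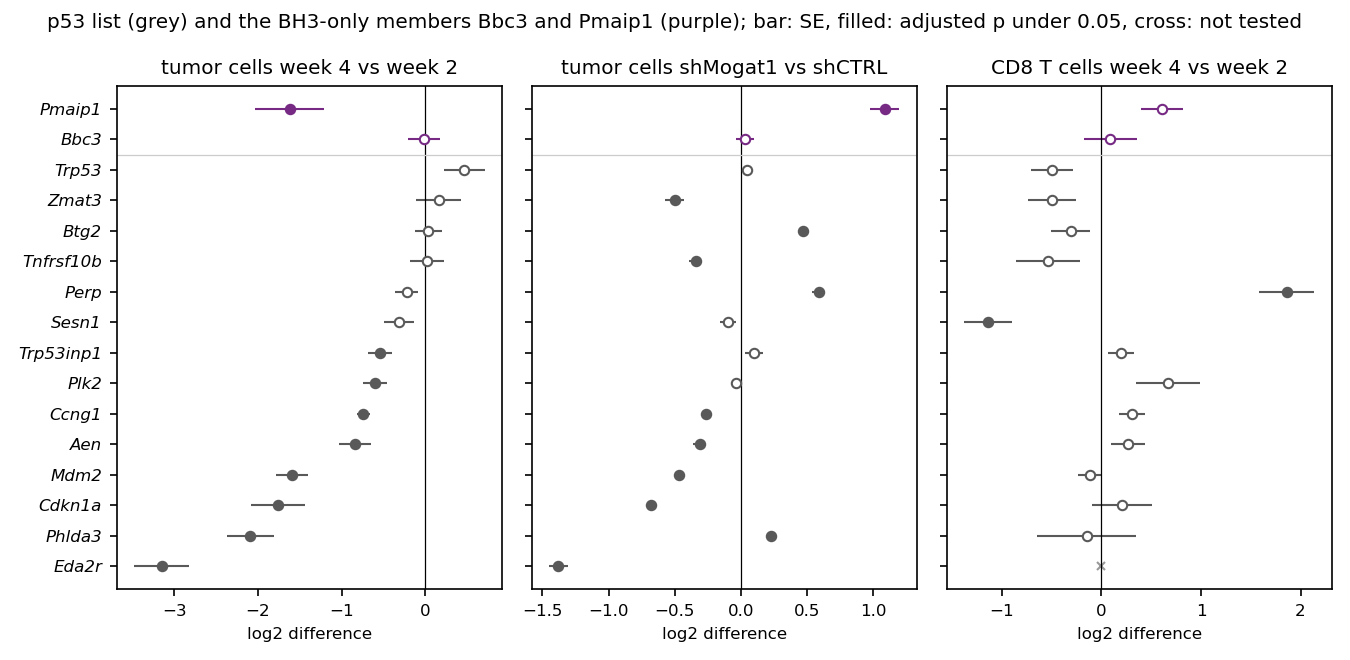
Log2 difference of mean log2(TPM + 1), with SE, of the 14 genes of the p53 list (grey) and of the BH3-only members Bbc3 and Pmaip1 (purple) in 3 comparisons; filled dots have an adjusted p under 0.05 and a cross marks a gene not tested. In tumor cells at week 4 against week 2, Pmaip1 (-1.62) falls with 8 of the 14 genes, and in tumor cells labelled shMogat1 it is higher (1.09) while 7 of the 14 are lower.

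The pore formers went both ways in tumor cells: Bax fell from 61.4 ± 3.82 to 41.8 ± 3.33 TPM (-0.55, adjusted p = 0.00102) and Bak1 rose from 93.7 ± 22.0 to 121 ± 12.5 TPM (0.38, 0.0456). Among the other BH3-only genes, Bmf rose from 4.63 ± 0.413 to 13.5 ± 3.29 TPM (1.34, 0.00104) and Bik, at 1.03 ± 0.296 TPM at week 2, fell by 0.70 (0.0313). Of 6 other BCL2-homology and BNIP3 genes, 5 rose and 0 fell, led by Bcl2l14 and Bnip3 (both 0.77, adjusted p 0.00247 and 0.022). Of 12 caspase, apoptosome and inhibitor genes, 2 rose and 6 fell, led by Birc3 (-1.11, 0.00289), Birc2 (-0.88, 2.25e-05) and Cycs (-0.84, 0.000631), which encodes cytochrome c. Of 10 death receptor genes, 1 rose and 6 fell, led by Fasl (-1.22, 0.00907), Tnfrsf1b (-1.18, 0.0384) and Ripk1 (-0.90, 0.000259).

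Of 12 NF-kB subunits and targets, 5 fell and 0 rose, led by Traf1 (-1.59, 0.00147) and Rel (-1.13, 0.00385). Of 14 cytokine survival genes, 5 fell and 0 rose, led by Socs1 (-2.59, 0.00012), Il2rg (-2.24, 0.000339) and Il2rb (-2.19, 0.00211), which leukocytes also express. Of 10 integrated stress response genes, 4 rose and 1 fell: Ddit4 rose from 194 ± 27.6 to 714 ± 78.9 TPM (1.88, 9.52e-06), Trib3 rose by 1.84 (9.48e-06) and Chac1 by 0.95 (0.00941). Of 8 FOXO genes, 2 rose and 0 fell.

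The third comparison set tumor cells labelled shMogat1 against those labelled shCTRL. Mcl1 fell to 0.584 of its mean in libraries labelled shCTRL, while Pmaip1 rose 2.31-fold, Bcl2a1a 3.02-fold, Bcl2a1b 1.96-fold and Bcl2l1 1.34-fold. Of 9 tested members, 4 rose, where 34.6% of 12936 genes did, and 3 fell, where 19.9% did. The 4 include Bcl2a1a and Bcl2a1b, which may share reads and so are not separate evidence. The members' median log2 difference was 0.20 and that of all genes 0.07. Rescaling turned 4479 higher and 2573 lower genes into 3109 and 3758. Because these libraries barely differed beyond sampling noise, adjusted p values are small for small differences.

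Mcl1 had 419, 427 and 413 TPM in the libraries labelled shCTRL and 243, 244 and 249 in those labelled shMogat1. The groups stood far apart, with a log2 difference of -0.77 (SE 0.02, adjusted p = 7.53e-08). Bcl2l1 went the other way, with 12.9, 12.9 and 13.4 TPM against 17.8, 16.6 and 18.1 (0.40, SE 0.05, adjusted p = 0.00032). Bcl2 had 13.1, 13.3 and 13.2 TPM against 11.9, 11.4 and 11.6. These groups did not overlap either, but the spread of the libraries labelled shCTRL (0.415% of the mean) was below the 3.91% that counting read pairs alone gives, and the call (-0.17, SE 0.05, adjusted p = 0.0177) was lost without shCTRL library 2 (0.0506) or 4 (0.05).

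Pmaip1 had 6.47, 7.46 and 6.09 TPM in libraries labelled shCTRL and 13.8, 14.3 and 18.0 in those labelled shMogat1 (1.09, SE 0.11, adjusted p = 8.14e-05). Bcl2l11 had 25.1, 26.6 and 25.9 TPM against 20.9, 21.5 and 21.9 (-0.26, SE 0.04, adjusted p = 0.000997). So the 2 BH3-only genes moved in opposite directions, without overlap in either. Bbc3 lay at 7.23 to 8.36 TPM against 7.87 to 7.97 and did not pass (adjusted p = 0.715).

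Of the A1 copies, Bcl2a1b had 6.87, 8.31 and 9.71 TPM against 15.5, 17.1 and 16.2 (0.90, SE 0.11, adjusted p = 0.000202). Bcl2a1a had 1.52, 1.45 and 1.30 TPM against 3.23, 5.67 and 4.03 (1.11, SE 0.16, adjusted p = 0.000707). Both were higher in every library labelled shMogat1. Bcl2a1a rests on 14 to 18 reads per library labelled shCTRL, whose spread (7.80% of the mean) was below the 36.1% that counting read pairs gives, so its fold is uncertain. Bcl2a1d, at 0.931 to 1.14 against 1.08 to 1.74 TPM, overlapped and did not pass, and Bcl2a1c was listed at 0 in all 6. The A1 sum was 9.33 to 11.9 TPM against 19.8 to 23.9.

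Marker genes also differed between these groups. All 4 pan-leukocyte markers rose (28.0 to 30.5 TPM summed, against 61.8 to 66.6), as did 10 of 10 macrophage and monocyte markers (298 to 326 against 627 to 643) and all 6 tested epithelial markers, among them Epcam by 4.18 and Krt8 by 4.05. T cell markers rose in 6 of 7 tested. Of 6 fibroblast markers 2 rose and 3 fell, and their sum was lower (4932 to 4973 TPM, against 2630 to 2706 in libraries labelled shMogat1). The part of other cells in the members' differences was not tested.

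Among 87 tested pathway genes, 39 rose and 26 fell (median 0.09). In the p53 list 3 rose and 7 fell, led by Eda2r (25.3 ± 0.507 to 9.13 ± 0.932 TPM, log2 difference -1.38, adjusted p = 1.93e-06), Cdkn1a (-0.68, 3.00e-07) and, upward, Perp (0.59, 3.18e-05). Bak1 rose by 0.37 (0.000175) and Bax fell by 0.27 (0.000226), the same directions as over time. Bid (0.63, 3.25e-05), Bad (0.47, 8.94e-05) and Bmf (0.45, 0.000754) rose, all 3 tested genes of the other BH3-only list. Of 12 caspase, apoptosome and inhibitor genes, 7 rose and 3 fell, Birc3 among the latter (-0.56, 3.26e-06). Of 12 NF-kB genes, 4 rose and 6 fell, led by Nfkb1 (-0.94, 7.55e-08). Fas, the FAS ligand receptor, rose by 0.88 (7.48e-06), and Trib3 of the stress response by 1.58 (2.11e-06).

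The last comparison set CD8 T cells labelled shMogat1 against those labelled shCTRL. Differences were smaller here: Mcl1 rose 1.21-fold, Bcl2 1.15-fold, Bcl2a1b 1.13-fold, and Bcl2l11 and Pmaip1 1.29-fold each, while Bbc3 fell to 0.804. Of 10 tested members, 5 rose, where 16.6% of 13742 genes did, and 1 fell, where 26.2% did. The members' median was 0.20 and that of all genes -0.05. Rescaling turned 2279 higher and 3599 lower genes into 3008 and 2973.

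Among the prosurvival members, Mcl1 had 441, 456 and 451 TPM in libraries labelled shCTRL and 541, 545 and 546 in those labelled shMogat1 (0.28, SE 0.03, adjusted p = 0.000141). Bcl2 had 100.3, 114 and 109 TPM against 122, 124 and 125 (0.20, SE 0.05, adjusted p = 0.0142). Neither gene overlapped between groups, and shCTRL library 1 was the lowest in both. Bcl2a1b, at 156, 139 and 133 TPM against 161, 168 and 156, all but overlapped (0.18, SE 0.06, adjusted p = 0.0411). That call was lost without the filter (0.0818), with the replicate block (0.224), and without shCTRL library 3 (0.102) or 4 (0.12) or any 1 of the libraries labelled shMogat1 (0.0895, 0.124 and 0.0583). Bcl2l1, Bcl2a1a, Bcl2a1c and Bcl2a1d overlapped and did not pass, though Bcl2a1d did without shCTRL library 1 (0.51, 0.00208).

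All 3 BH3-only members passed. Bcl2l11 had 40.9, 45.4 and 47.0 TPM against 55.6, 57.3 and 59.0 (0.36, SE 0.06, adjusted p = 0.00172). Pmaip1 had 65.0, 71.3 and 71.5 TPM against 92.2, 91.9 and 84.5 (0.37, SE 0.05, adjusted p = 0.00112). Bbc3 was lower, at 13.9, 16.1 and 16.2 against 12.3, 11.9 and 12.9 (-0.29, SE 0.07, adjusted p = 0.0147), and its call was lost with the replicate block (0.125) and without shCTRL library 4 (0.0547). None of the 3 overlapped between groups.

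**Figure D5:**
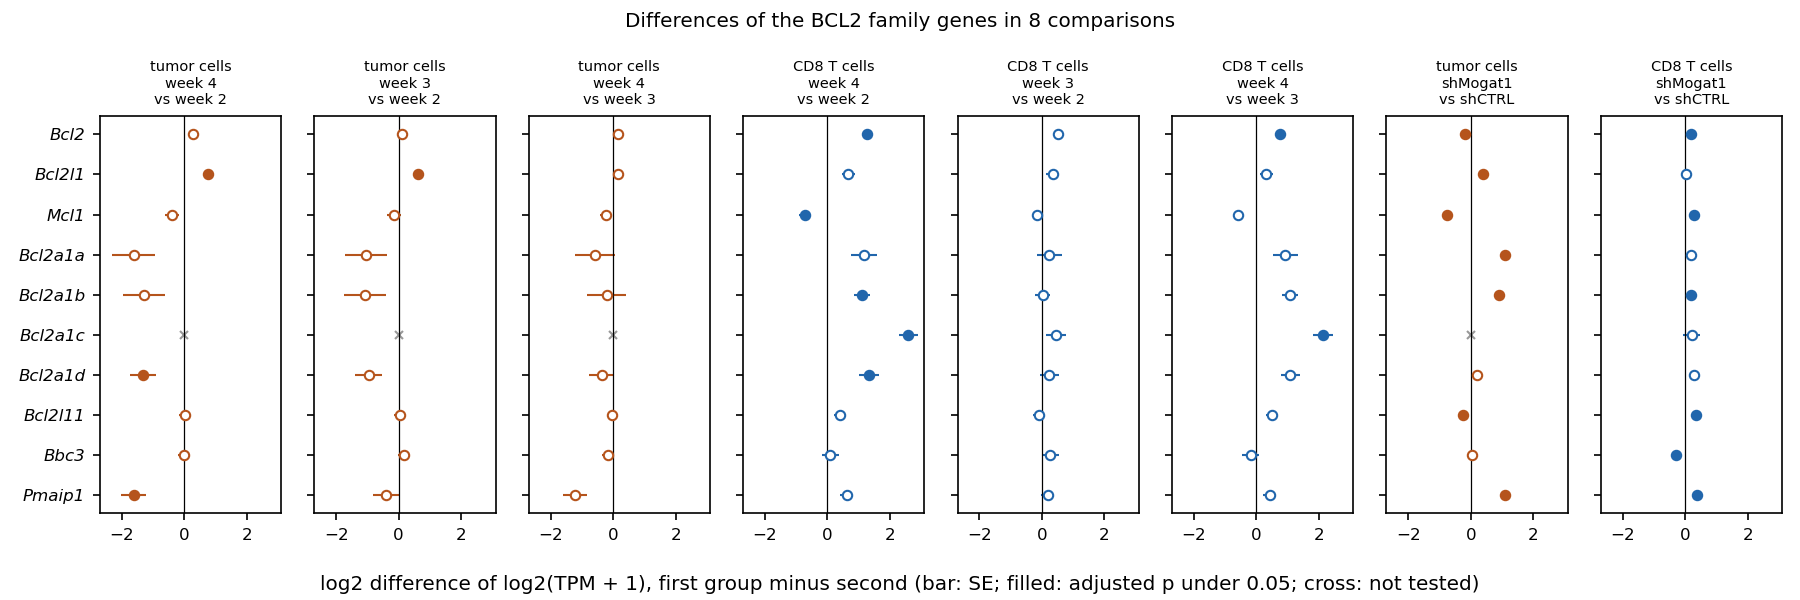
Log2 difference of mean log2(TPM + 1), first-named minus second-named group, with SE, for each member (rows) in the 8 comparisons (columns); filled dots have an adjusted p under 0.05 and crosses were not tested. Mcl1 is lower in tumor cells labelled shMogat1 (-0.77) and higher in the CD8 T cells (0.28), and the A1 copies lie left of 0 in tumor cells and right of 0 in CD8 T cells at week 4 against week 2.

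Epithelial markers were again higher in libraries labelled shMogat1 (5 of 7 rose, among them Krt8 by 3.43, and 1 fell; 227 to 231 against 92.7 to 98.8 TPM summed), and fibroblast markers lower (5 of 6 fell; 873 to 927 against 1833 to 1873). Of 10 macrophage and monocyte markers, 6 rose and 1 fell (2930 to 3094 against 2802 to 2926 TPM summed). Of 6 dendritic cell markers, 1 rose and 4 fell, with a median log2 difference of -0.74. Their sum was higher (768 to 808 against 597 to 607 TPM), but most of it was Ccr7 (743 to 785 against 539.6 to 551 TPM). T cell markers summed to 4954 to 4970 against 4824 to 5067 TPM. Their part in the members' differences was not tested.

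Of 90 tested pathway genes, 27 rose and 26 fell (median 0.01). Cytokine survival signals had the most calls: 11 of 14 rose and 2 fell (median 0.30), led by Stat5a (58.3 ± 2.28 to 93.1 ± 3.69 TPM, 0.67, adjusted p = 2.34e-05), Il7r, the interleukin 7 receptor (243 to 346 TPM, 0.51, SE 0.04, adjusted p = 2.63e-05), and Il2ra (0.47, 0.00099). All 3 pore formers fell: Bok by 0.82 (0.000113), Bax by 0.23 (0.0443) and Bak1 by 0.17 (0.0135). Of 12 caspase, apoptosome and inhibitor genes, 3 fell and 0 rose, Birc5 among them (-0.57, 0.000168). Of 8 FOXO genes 4 rose, led by Foxo1 (0.52, 5.92e-05), and 1 fell, Trib1 (-0.68, 2.30e-05). Of 14 p53 genes, 4 rose and 5 fell.

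Genes whose log2(TPM + 1) followed a member most closely were listed over the libraries of each time course, among 9193 genes (tumor cells) and 8221 genes (CD8 T cells) with a mean TPM of 10 or more. Over 9 CD8 T cell libraries, Bcl2 was followed most closely by Inpp4b (Pearson r = 0.995), Gprin3 (0.989) and Lrrcc1 (0.982), and Mcl1 by Ms4a6c (0.996), Cep97 (0.993) and Siah1a (0.991). Bcl2l11 was followed by Nfkb2 (0.955), Bend4 (0.952) and Tnfrsf1b (0.948). Over 11 tumor libraries, the genes nearest the A1 copies were leukocyte genes: Aif1 (0.983), Slamf9 (0.974) and Cd86 (0.970) for Bcl2a1a, Slamf9 (0.976), Dcstamp (0.959) and Srgn (0.955) for Bcl2a1b, and Cd52 (0.969), Cd86 (0.968) and Aif1 (0.957) for Bcl2a1d. For Pmaip1 in tumor cells they were Ly6c2 (0.969), Plekho1 (0.965) and Irf5 (0.960), and for Bcl2l1 Acaa1a (0.986), Hps4 (0.985) and Elac2 (0.985). Libraries share weeks and depth, so these likenesses are descriptions.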

How the data were processed

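Gene expression was measured by RNA sequencing in 32 mouse libraries. The authors deposited TPM values in 4 tables. FastQC, Trim Galore, HISAT2 and the mm10 build are named, without versions, per the submitters' processing notes; the read counter and gene lengths are not given in the sources used here. Of 33681 rows per table, 27 with dates for names were dropped (at most 0.184% of TPM).

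The members and gene lists were chosen with earlier results of these data known. The depths rest on whole read numbers recovered for 24483 of 24485 genes above 0 in at least 3 libraries (tolerance 0.05 reads); most look counted per mate, since 74.6% of recovered numbers from 1 to 10 were even. They entered no test, and counts of reads carry counting error only.

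Each table was fitted alone with limma 3.58.1 (R 4.3.3; lmFit, eBayes with trend) on log2(TPM + 1). Genes entered if 3 or more libraries reached 1 TPM, with all groups of the table in 1 fit. P-values were adjusted over all tested genes by the Benjamini-Hochberg method, and an adjusted p under 0.05 was called. A difference on this scale understates the change of low genes; folds in the text are ratios of mean TPM. The fit was tested on simulated data with independent normal noise in each library and changes only in well-expressed genes. That test does not cover technical replicates, mixed cell types or low read numbers. Tables were scaled separately, so no test spans them. The labels state no pairing and replicate numbers gave no sign of one within a table, so the fit has no block.

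Members may be named in any comparison. From each pathway list, up to 3 called genes with the largest difference are named (1 such gene is not reported here), and Bax, Bak1, Bok, Bad, Bid, Bik, Bmf, Hrk and Bcl2l2 anywhere. Marker genes stand beside results they move with. Alternatives were a pseudocount of 0.1, no filter, a filter at 5 TPM, median-of-ratios rescaling, a replicate block, fits of 2 weeks only and leaving out each library. Python 3.11.15, pandas, numpy and matplotlib made tables and plots.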

Additional observations from a re-analysis of the deposited data

Results flagged for a closer look

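Bcl2a1c had 0.647 TPM in tumor cell week 4 library 3, where the other 3 libraries of that group were listed at 0. The value stands for 3 recovered reads. It was picked out because its gap to the others fills the whole range of the group. The check covered 10 members in 2 groups of 4 libraries, with a nominal rate of about 1 in 20. That rate does not hold here, because a single value above 0 in a group is always picked out.

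Some members moved in opposite directions in tumor cells and CD8 T cells without overlap between the groups of either cell type. The share of all genes that did so was not counted, so these members are not shown to be unusual. Between hairpin groups, limma called 34.6% of genes higher and 19.9% lower in tumor cells, and 16.6% and 26.2% in CD8 T cells. At week 4 against week 2 it called 29.2% and 17.1% in tumor cells, and 10.3% and 7.18% in CD8 T cells. The difference between cell types was not tested, because their tables were scaled separately. For Pmaip1 at week 4 against week 2, the log2 difference was -1.62 in tumor cells and 0.61 in CD8 T cells, and the latter did not pass (limma, adjusted p = 0.0759). In libraries labelled shMogat1 against shCTRL, Bcl2 differed by -0.17 in tumor cells and 0.20 in CD8 T cells. In the same comparison Mcl1 differed by -0.77 and 0.28, and Bcl2l11 by -0.26 and 0.36.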

How the results depend on the processing

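Of 1099 values of members under the alternatives, 996 kept their direction and their side of the threshold, 45 lost and 24 gained the call, and 34 changed direction, all of the last for members that had not passed. The cause of these changes was not tested. In the hairpin set, counting noise is as large as the spread for many members, so depth limits their precision.

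At week 4 against week 2 in tumor cells, members lower numbered 1 without the filter, 4 under median-of-ratios rescaling, and 1 with the replicate block or 2 weeks only; 2 were higher at a filter of 5 TPM. Leaving out 1 library gave 1 to 2 higher and 1 to 4 lower. At week 3 against week 2, 0 were higher with 2 weeks only, and leaving out 1 library gave 0 to 1 in either direction. At week 4 against week 3, rescaling, the block and 2 weeks only each gave 1 lower, and leaving out 1 library 0 to 1.

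In CD8 T cells at week 4 against week 2, 0 were lower without the filter or with 2 weeks only, and 2 were higher with the replicate block; leaving out 1 library gave 1 to 6 higher and 0 to 1 lower. For weeks 4 against 3, 1 was higher with a pseudocount of 0.1 or a filter of 5 TPM and 0 with the block; leaving out 1 library gave 0 to 4 higher and 0 to 1 lower. Between CD8 hairpin groups, 0 were lower with the block, and leaving out 1 library gave 4 to 6 higher and 0 to 1 lower. Tumor hairpin groups kept 4 higher, with 2 to 3 lower.

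Directions changed under rescaling for Bcl2l11 in tumor cells (-0.10, -0.11 and 0.01 for weeks 4 against 2, 3 against 2 and 4 against 3), Bcl2 (-0.04, weeks 3 against 2), Bbc3 between tumor hairpin groups (-0.05) and Bcl2a1b in CD8 T cells (-0.10, weeks 3 against 2). With the replicate block they changed in CD8 T cells for Bbc3 (-0.10, weeks 4 against 2) and, at weeks 3 against 2, Bcl2a1b (-0.03) and Pmaip1 (-0.01). Within a table, same-numbered libraries correlated at -0.26 to 0.43 in their deviations from group means, and differently numbered ones at -0.43 to 0.45. These few pairs gave no sign that the numbers pair the libraries, but they cannot settle it. Tumor libraries were not compared with CD8 T cell libraries of the same number.

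Leaving out 1 library, tumor cell differences ranged at weeks 4 against 2 from -0.19 to 0.11 for Bbc3 and -0.11 to 0.31 for Bcl2l11. At weeks 3 against 2 they ranged from -0.37 to 0.10 for Mcl1, -0.63 to 0.01 for Pmaip1, -0.10 to 0.33 for Bcl2l11 and -0.02 to 0.27 for Bbc3. At weeks 4 against 3 they ranged from -0.09 to 0.05 for Bcl2l11 and -0.55 to 0.29 for Bcl2a1b. In CD8 T cells Bbc3 ranged from -0.29 to 0.29 (weeks 4 against 2) and -0.56 to 0.03 (4 against 3). At weeks 3 against 2, Bcl2a1a ranged from -0.06 to 0.76, Bcl2a1b from -0.23 to 0.31 and Bcl2l11 from -0.28 to 0.04. Between hairpin groups, Bbc3 in tumor cells ranged from -0.01 to 0.08 and Bcl2l1 in CD8 T cells from -0.02 to 0.05.

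Counts over all genes moved by over 1.5 times too. With 2 weeks only they became 1424 higher and 213 lower (tumor cells, weeks 3 against 2) and 1742 and 2115 (4 against 3, from 817 and 1209). Lower genes in CD8 T cells at weeks 4 against 2 went from 958 to 561 without the filter, 435 with the block and 391 with 2 weeks only. With the block, 2 higher and 1 lower remained at weeks 4 against 3, 0 higher at weeks 3 against 2 (from 6), and 361 lower in tumor cells at weeks 3 against 2. Without the filter, 97 were lower in CD8 T cells at weeks 4 against 3. Leaving out 1 library gave, in tumor cells, 1255 to 4725 higher and 116 to 1026 lower genes at weeks 3 against 2 and 467 to 1602 and 760 to 1978 at weeks 4 against 3. In CD8 T cells it gave 681 to 1532 higher and 233 to 1583 lower at weeks 4 against 2, and 24 to 246 and 22 to 412 at weeks 4 against 3.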
